A study of Mus musculus with 16 samples.

Results

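The response to adrenalectomy in the stomach of TTPΔARE mice was described by comparing the 4 RNA-seq libraries labelled TTP-A with the 4 labelled TTP-S, which are 8 of the 16 libraries of the series. TTPΔARE mice lack the AU-rich element of Zfp36, the gene of tristetraprolin (TTP), in both groups. They are labelled congenic C57BL/6. In TTP-A mice gastric inflammation was induced by adrenalectomy (ADX), the surgical removal of the adrenal glands. For TTP-S the treatment label reads spasmolytic polypeptide-expressing metaplasia (SPEM), and whether these mice had any operation is not given in the sources used here. WT-A and WT-S are the same 2 treatment labels in C57BL/6 mice of WT genotype, with 4 libraries each. All mice are female and 8 weeks old. RNA was extracted from corpus tissue along the lesser curvature, taken as a biopsy 4 mm across. No label says that the 4 libraries of a group came from separate animals, so the p-values measure the spread between these libraries, which may be technical.

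Adrenal glucocorticoids bind the glucocorticoid receptor, which switches on genes such as Per1, Fkbp5 and Tsc22d3 and restrains inflammation. TTP binds AU-rich elements in the transcripts of cytokines and other short-lived mRNAs and speeds their decay, and loss of the element in its own transcript is known to stabilise that transcript. The glands of the corpus hold acid-secreting parietal cells, zymogenic chief cells, mucous neck cells and, at the surface, foveolar cells. SPEM is the lineage in which glands of the corpus come to express mucous neck cell products such as Muc6 and Tff2. A biopsy mixes epithelium, immune cells, stroma, muscle and fat, and in such bulk RNA fewer cells of a type and less RNA per cell cannot be told apart.

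The 8 libraries held 20897982 to 25582609 read counts assigned to genes. Corpus markers were abundant in all of them: Atp4a, a subunit of the parietal proton pump, lay at 10760 to 12560 CPM in TTP-A against 12620 to 13400 CPM in TTP-S, and Pgc, the chief cell zymogen, at 89140 to 136700 CPM in TTP-A against 120500 to 128000 CPM in TTP-S. CPM, the unit of every level below, is the read count scaled to library size after TMM scaling, which aligns the libraries on the bulk of their genes. TTP-S 1 and TTP-A 4 stood apart in genes of squamous epithelium (keratins and cornification genes, as in the forestomach). The 17 genes listed for it summed to 1094 and 568 CPM in these libraries and to 10.3 to 109 CPM in the other 6. Over the 8 libraries the first principal component held 33.4% of the variance and placed TTP-A 1 and TTP-A 4 furthest from TTP-S, with TTP-A 2 nearest to it.

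Of 24964 genes counted, 15385 passed the count filter, and 446 of them, 2.90%, differed between TTP-A and TTP-S at an adjusted p-value under 0.05 by edgeR's quasi-likelihood test with Benjamini-Hochberg adjustment over all 15385. Such genes are called higher or lower below, and passed means the same threshold. Genes called higher in TTP-A numbered 239 (1.55% of those tested) and genes called lower 207 (1.35%). The medians of their log2 fold changes were 0.80 and -0.54, against -0.0010 over all tested genes, and 93 of the higher and 36 of the lower genes changed 2-fold or more. In 419 of the 446 no TTP-A library overlapped a TTP-S library, as was so for 2109 (13.7%) of all tested genes. The count depended on single libraries. It was 60 without TTP-A 1, 937 without TTP-A 2, 196 without TTP-A 3, 84 without TTP-A 4, 211 without TTP-S 1, 88 without TTP-S 2, 166 without TTP-S 3, 76 without TTP-S 4 and 288 without WT-S 3. The 8 TTP libraries fitted alone gave 1195 called genes, the fit without both TTP-A 4 and TTP-S 1 gave 53, and all 446 kept the sign of their change in both sets of 14 libraries.

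**Figure D1:**
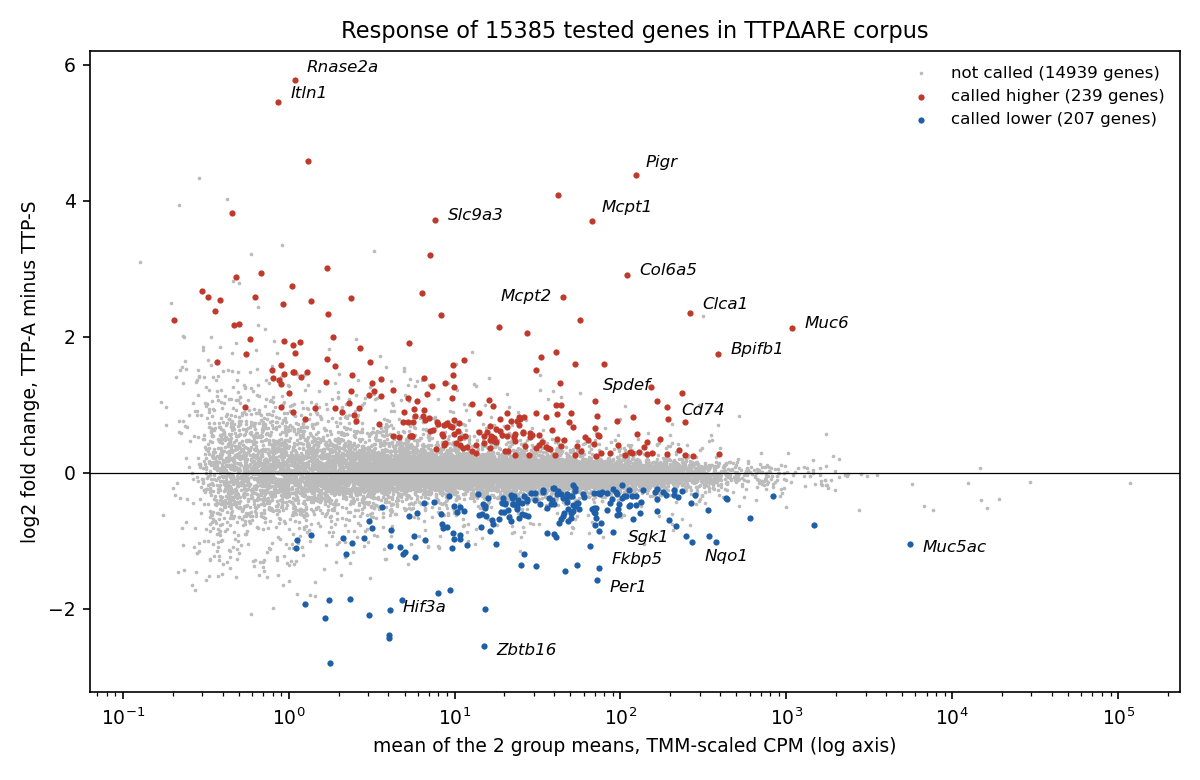
Each point is 1 tested gene, with the mean of the 2 group means in TMM-scaled CPM (log axis) across and the log2 fold change, TTP-A minus TTP-S, up. Red points are the 239 genes called higher and blue points the 207 called lower. Pigr, Mcpt1, Clca1 and Muc6 are among the rises, and Zbtb16, Per1, Fkbp5 and Muc5ac are among the falls.

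The 4 TTP-A libraries were not alike. TTP-A 2 was the lowest of the 4 in 172 of the 239 genes called higher, and the highest in 145 of the 207 called lower, so it lay nearest to TTP-S in most called genes. TTP-A 1 was the highest in 145 of the genes called higher and the lowest in 109 of those called lower.

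Zfp36 itself, at chr7:28376784-28379228 of the mm10 build, had similar levels in the 2 groups and was not called. It had 131, 129, 110.5 and 120.2 CPM in TTP-A 1 to 4 and 115, 121, 129.5 and 124 CPM in TTP-S 1 to 4. The groups overlapped, and the log2 fold change was 0.0080 ± 0.10, adjusted p = 0.987 (± is the standard error here and below). An exact permutation test over the 8 libraries (two-sided, 70 permutations, smallest possible p = 0.0286) gave p = 0.943. WT libraries held 55.1 to 88.6 CPM, below every TTPΔARE library. A count over the whole gene does not show whether the deleted element is missing.

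Several genes that glucocorticoids induce fell. Of 20 tested members of a list of classic glucocorticoid receptor targets, 9 were called lower and none higher, a share of 45.0% against 1.35% of all genes called lower. The median log2 fold change of the 20 was -0.54, against -0.0010 over all tested genes. The called members were Per1, Fkbp5, Tsc22d3, Zbtb16, Sgk1, Klf9, Pdk4, Hif3a and Cebpd. The number of called members lay between 7 (without TTP-A 4 or TTP-S 2 or 4) and 10 (without TTP-A 2) in the fits with 1 TTP library removed and was 8 without both TTP-A 4 and TTP-S 1.

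Per1, a repressor of the circadian clock whose promoter region the glucocorticoid receptor also activates, lies at chr11:69095108-69109965. It had 35.9, 36.7, 37.5 and 34.4 CPM in TTP-A 1 to 4 and 90.9, 133, 104 and 104 CPM in TTP-S 1 to 4. The 4 TTP-A libraries lay within a few CPM of each other and well below every TTP-S library. Its log2 fold change was -1.58 ± 0.12, adjusted p = 1.52e-05, the smallest p-value of all tested genes. Fkbp5, the co-chaperone that damps the receptor's own signalling, lies at chr17:28398753-28486149 and had 41.2, 42.4, 39.4 and 39.8 CPM in TTP-A 1 to 4 and 72.96, 134, 95.4 and 129 CPM in TTP-S 1 to 4. Again TTP-A was tight and TTP-S spread, with TTP-S 1 the lowest TTP-S library (-1.41 ± 0.17, adjusted p = 4.66e-04). Tsc22d3 encodes GILZ, an anti-inflammatory leucine zipper protein induced by glucocorticoids. It had 50.5, 59.3, 52.9 and 48.6 CPM in TTP-A 1 to 4 and 79.4, 109, 89.2 and 106 CPM in TTP-S 1 to 4, without overlap (-0.86 ± 0.089, adjusted p = 1.91e-04). Per1, Fkbp5 and Tsc22d3 passed in all 8 fits with 1 TTP library removed.

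Zbtb16 (PLZF), a zinc finger transcription factor, had a log2 fold change of -2.56 ± 0.31, adjusted p = 4.66e-04, from 4.63, 4.69, 3.36 and 4.77 CPM in TTP-A 1 to 4 and 11.8, 23.8, 25.9 and 41.7 CPM in TTP-S 1 to 4. TTP-S 4 was the highest and TTP-S 1 the lowest of TTP-S, and no TTP-A library came near them. Hif3a, a hypoxia-inducible factor subunit, had 1.68, 1.84, 1.01 and 1.95 CPM in TTP-A 1 to 4 and 3.85, 8.19, 6.03 and 8.36 CPM in TTP-S 1 to 4, a log2 fold change of -2.02 ± 0.28, adjusted p = 0.00197. Klf9, a Krüppel-like repressor, had 42.5, 47.3, 37.5 and 40.1 CPM in TTP-A 1 to 4 and 79.03, 93.1, 84.7 and 97.2 CPM in TTP-S 1 to 4, and both groups were tight and separate (-1.08 ± 0.10, adjusted p = 8.16e-05). Pdk4, the kinase that shuts pyruvate out of the mitochondrial oxidation pathway, had 14.99, 15.3, 12.2 and 13.8 CPM in TTP-A 1 to 4 and 28.8, 44.1, 35.2 and 36.5 CPM in TTP-S 1 to 4, with TTP-A again below TTP-S throughout (-1.36 ± 0.16, adjusted p = 4.35e-04). Zbtb16, Hif3a, Klf9 and Pdk4 passed in all 8 fits with 1 TTP library removed.

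Sgk1, the kinase that raises sodium channel activity, differed from these. It had 109, 271, 182 and 119.8 CPM in TTP-A 1 to 4 and 368, 364, 277 and 289 CPM in TTP-S 1 to 4. TTP-A 2 almost reached the TTP-S libraries and TTP-A 1 and TTP-A 4 were lowest, so the fall was uneven (-0.93 ± 0.24, adjusted p = 0.0481). Cebpd, a transcription factor of acute responses, had 7.81, 5.85, 6.24 and 6.30 CPM in TTP-A 1 to 4 and 9.12, 13.3, 10.3 and 13.03 CPM in TTP-S 1 to 4 (-0.80 ± 0.16, adjusted p = 0.0179). Cebpd did not pass without TTP-A 4 or TTP-S 2 or 4 (highest adjusted p = 0.0723). Sgk1 passed, of the fits with 1 TTP library removed, only in that without TTP-A 2 (highest adjusted p = 0.169). The other 11 members were not called. Among them Dusp1 (0.32, adjusted p = 0.604), Mt1 (0.33, adjusted p = 0.421) and Mt2 (0.55, adjusted p = 0.166) had values above 0 and Angptl4 a value of -1.34, adjusted p = 0.0603. The receptors were not called: Nr3c1, the glucocorticoid receptor, had 0.012, adjusted p = 0.979 and Nr3c2, the mineralocorticoid receptor, -0.24, adjusted p = 0.375. None of the 7 tested genes of corticosteroid receptors and local steroid metabolism was called.

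The spread within groups differed between the 9 called targets. The coefficient of variation was smaller in TTP-A than in TTP-S for 7 of the 9, for example 3.61% against 16.6% for Per1, 3.37% against 26.8% for Fkbp5 and 15.4% against 47.7% for Zbtb16. Sgk1, with 43.6% against 14.9%, and Klf9, with 9.96% against 9.25%, were the other two. TTP-S 1 was the lowest TTP-S library for 8 of the 9 and the highest for Sgk1. No test was made of these spreads.

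Several genes outside the list fell as well. Fam107a, an actin-associated protein of the stress response, had 0.818, 1.40, 1.25 and 1.16 CPM in TTP-A 1 to 4 and 3.36, 6.38, 4.002 and 6.05 CPM in TTP-S 1 to 4, with all TTP-A libraries below all TTP-S libraries (-2.09 ± 0.24, adjusted p = 4.35e-04). Usp2, a deubiquitinase, had 27.2, 29.5, 30.1 and 24.8 CPM in TTP-A 1 to 4 and 46.6, 60.2, 54.9 and 53.8 CPM in TTP-S 1 to 4 (-0.95 ± 0.11, adjusted p = 4.66e-04). Rgcc, a regulator of the cell cycle, had 1.95, 2.27, 1.92 and 2.13 CPM in TTP-A 1 to 4 and 7.17, 9.55, 5.63 and 7.87 CPM in TTP-S 1 to 4, and the groups were apart (-1.87 ± 0.21, adjusted p = 3.24e-04). Fmo2, a flavin monooxygenase, ranged over 15.5 to 19.2 CPM in TTP-A against 36.99 to 52.4 CPM in TTP-S (-1.38 ± 0.14, adjusted p = 1.91e-04). Among genes with small p-values, Arhgef26 (-0.91, adjusted p = 4.35e-04), Cyth3 (-0.52, adjusted p = 8.07e-04) and Prim2 (-0.98, adjusted p = 0.00123) fell less, and Fut4, a fucosyltransferase, had -1.36, adjusted p = 3.15e-04. Other steep falls were in genes of low level, Adamtsl2 (1.18 to 1.54 CPM in TTP-A against 5.39 to 8.52 CPM in TTP-S), Mchr1 (0.387 to 0.908 CPM in TTP-A against 1.82 to 3.29 CPM in TTP-S), Slc10a6 (0.273 to 0.741 CPM in TTP-A against 1.73 to 2.16 CPM in TTP-S) and Piwil4 (0.672 to 0.818 CPM in TTP-A against 1.53 to 4.03 CPM in TTP-S). Fam107a, Usp2, Rgcc, Fmo2, Arhgef26, Cyth3, Prim2, Fut4, Adamtsl2, Mchr1 and Piwil4 passed in all 8 fits with 1 TTP library removed. Slc10a6 did not pass without TTP-A 1 or TTP-S 4 (highest adjusted p = 0.0693).

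Slc26a10 (-2.003, adjusted p = 0.00492) and B4galnt1 (-0.93, adjusted p = 4.35e-04), a ganglioside-synthesising enzyme, are annotated with 948 bases in common on chromosome 10, and whether the counting used strand is not given in the sources used here. Reads in the shared stretch cannot be assigned to one of them with certainty. B4galnt1 had 208, 277, 234 and 223 CPM in TTP-A 1 to 4 and 389, 509.6, 420.2 and 478 CPM in TTP-S 1 to 4, so TTP-A lay below TTP-S in every library. Slc26a10 and B4galnt1 passed in all 8 fits with 1 TTP library removed.

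**Figure D2:**
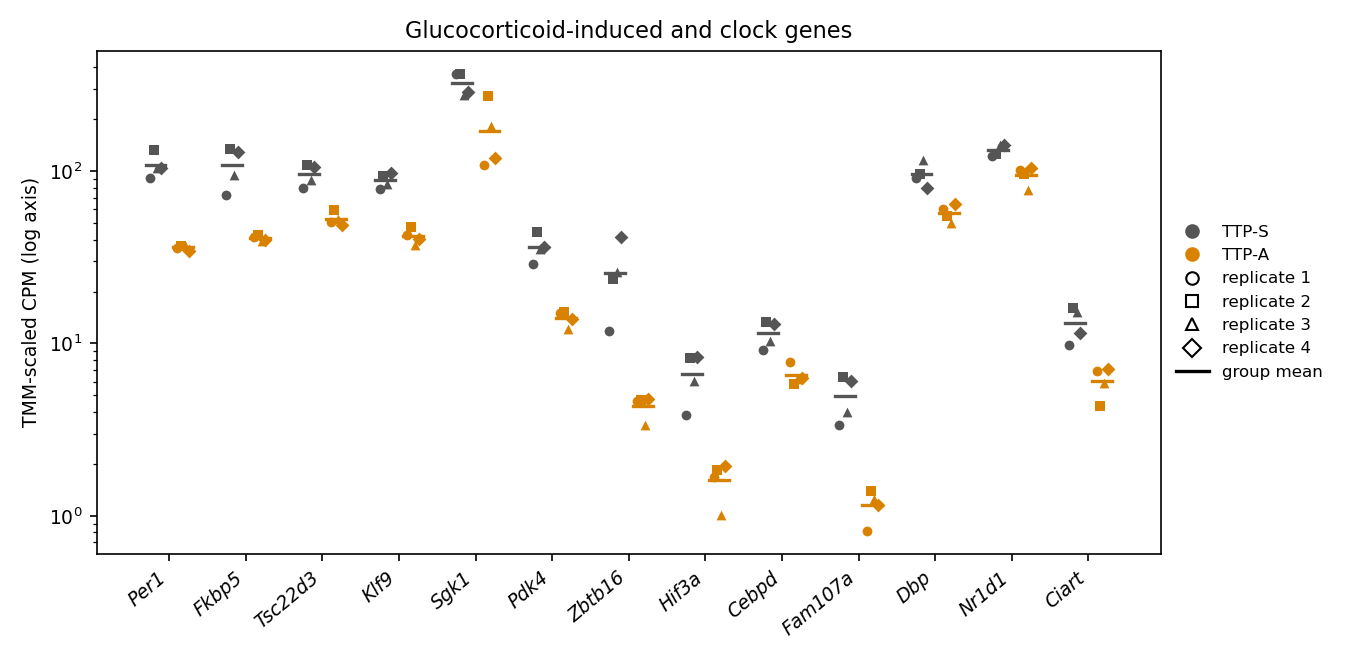
TMM-scaled CPM (log axis) of 13 genes in the 4 TTP-S libraries (grey) and 4 TTP-A libraries (orange), with symbols for replicates and bars for group means. For Per1 and Fkbp5 the orange points lie within 34.4 to 42.4 CPM and the grey points at 72.96 CPM or above, while Sgk1 in TTP-A 2 reaches 271 CPM.

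The upstream sequences of the called genes were searched for the element that the glucocorticoid receptor binds, an inverted repeat with 3 bases between its arms. RefSeq promoter windows on GRCm38.p6 were used, 250 bases upstream of each annotated start, on both strands. The full palindrome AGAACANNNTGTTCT was present in 3 of 32851 windows and, among tested genes, in Sgk1 alone. A relaxed form, GNACANNNTGTNC, which contains the full form, was present for 6 of 169 genes called lower (3.55%), for 1 of 179 called higher (0.559%) and for 42 of 11917 tested genes with a window (0.352%). A single arm, AGAACA, was present for 19.5% of genes called lower, 21.2% of those called higher and 13.2% of those tested. A match is a run of letters and not a measured binding site, and no binding was measured here. Below are the 7 relaxed matches among called genes, each with 20 bases on either side, read 5′ to 3′ in the direction of the gene. Capitals mark the match. Kcna5, Map3k6, Suox and Serpina3n were chosen for their matches, after their values were seen.
Sgk1, chr10:21993682-21993734, plus strand: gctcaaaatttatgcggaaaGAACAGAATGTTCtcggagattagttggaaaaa
Fam107a, chr14:8309865-8309917, minus strand: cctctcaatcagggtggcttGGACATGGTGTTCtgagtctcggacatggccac
Slc10a6, chr5:103629534-103629586, minus strand: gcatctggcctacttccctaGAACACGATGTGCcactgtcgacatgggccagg
Kcna5, chr6:126535582-126535634, minus strand: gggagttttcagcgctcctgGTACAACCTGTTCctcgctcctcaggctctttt
Map3k6, chr4:133240617-133240669, plus strand: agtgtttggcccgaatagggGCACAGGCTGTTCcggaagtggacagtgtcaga
Suox, chr10:128673932-128673984, minus strand: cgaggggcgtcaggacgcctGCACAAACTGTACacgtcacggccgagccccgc
Serpina3n, chr12:104406610-104406662, plus strand: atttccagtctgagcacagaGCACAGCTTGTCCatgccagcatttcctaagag

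The matches begin 188 bases before the annotated start in Sgk1, 120 in Fam107a, 163 in Slc10a6, 59 in Kcna5, 181 in Map3k6, 46 in Suox and 78 in Serpina3n. Sgk1 has 6 annotated start windows and 1 of them holds the match, and Fam107a has 3 with the match in 2. Kcna5, a potassium channel, had a log2 fold change of -1.04, adjusted p = 0.0184, Map3k6, a stress kinase, -0.82, adjusted p = 0.00931 and Suox, sulfite oxidase, -0.62, adjusted p = 0.0352. Serpina3n, an acute-phase protease inhibitor, is the one match among genes called higher (1.70, adjusted p = 0.0463). Map3k6 passed in all 8 fits with 1 TTP library removed. Kcna5 passed, of the fits with 1 TTP library removed, only in those without TTP-A 2 or TTP-S 1 or 3 (highest adjusted p = 0.0735). Suox and Serpina3n passed, of the fits with 1 TTP library removed, only in that without TTP-A 2 (highest adjusted p = 0.125 and 0.179 in that order).

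Several clock genes also fell. Of 19 tested clock genes 5 were called lower, Per1, Ciart, Dbp, Bhlhe41 and Nr1d1, and none higher (26.3% called, against 2.90% of all genes). The list's median was -0.18. The number of clock genes called lay between 3 (without TTP-A 1, 3 or 4 or TTP-S 1, 2 or 4) and 8 (without TTP-A 2) in the fits with 1 TTP library removed and was 3 without both TTP-A 4 and TTP-S 1. Ciart, a repressor of the clock's activator pair, had 6.95, 4.35, 5.91 and 7.08 CPM in TTP-A 1 to 4 and 9.76, 15.98, 15.2 and 11.6 CPM in TTP-S 1 to 4, without overlap (-1.11 ± 0.17, adjusted p = 0.00506). Dbp, a transcription factor driven by that pair, had 60.4, 54.8, 49.9 and 64.1 CPM in TTP-A 1 to 4 and 91.6, 96.8, 116 and 79.8 CPM in TTP-S 1 to 4, again with TTP-A lower throughout (-0.74 ± 0.13, adjusted p = 0.0122). Nr1d1, the repressor REV-ERBα, had 102, 96.6, 77.8 and 104 CPM in TTP-A 1 to 4 and 122, 126, 141 and 142 CPM in TTP-S 1 to 4 (-0.48 ± 0.12, adjusted p = 0.0421), and Bhlhe41 ranged over 10.2 to 11.99 CPM in TTP-A against 15.1 to 18.8 CPM in TTP-S (-0.63 ± 0.14, adjusted p = 0.0297). The core activators had values near 0, Arntl 0.022, adjusted p = 0.976 and Clock -0.011, adjusted p = 0.986, and Per2 (-0.18, adjusted p = 0.598), Tef (-0.32, adjusted p = 0.0525) and Hlf (-0.35, adjusted p = 0.111) were not called. The time of day of sampling is not given in the sources used here. Ciart lies inside the annotated span of the RNA C920021L13Rik, and Dbp and Nr1d1 share 741 and 1075 bases with Sphk2 and Thra, so reads in those stretches are of uncertain origin. Ciart and Dbp passed in all 8 fits with 1 TTP library removed. Nr1d1 and Bhlhe41 passed, of the fits with 1 TTP library removed, only in that without TTP-A 2 (highest adjusted p = 0.135 and 0.108 in that order).

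The E-box CACGTG, the motif of the clock's activator pair, was present upstream of 5 of the 16 clock genes with a window (31.2%). It was present for nearly the same share of the glucocorticoid list, 5 of 17 genes (29.4%), and Per1 belongs to both lists. The E-box was present for 10.7% of genes called lower, 10.1% of those called higher and 9.43% of tested genes. The windows of Per1 and Ciart, the clock genes with the largest falls, are shown with the E-boxes in capitals.
Per1, chr11:69098699-69098948, plus strand: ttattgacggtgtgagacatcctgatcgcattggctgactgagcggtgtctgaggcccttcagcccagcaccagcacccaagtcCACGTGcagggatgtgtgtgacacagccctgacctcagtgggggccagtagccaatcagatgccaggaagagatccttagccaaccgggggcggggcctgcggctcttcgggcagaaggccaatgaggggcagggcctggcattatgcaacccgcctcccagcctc
Ciart, chr3:95882229-95882478, minus strand: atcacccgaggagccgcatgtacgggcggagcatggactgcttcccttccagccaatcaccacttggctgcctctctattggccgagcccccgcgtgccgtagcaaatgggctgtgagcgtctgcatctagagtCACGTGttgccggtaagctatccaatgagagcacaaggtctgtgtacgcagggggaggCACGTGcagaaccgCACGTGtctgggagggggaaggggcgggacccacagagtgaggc

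Per1 has 1 E-box in this window, beginning 166 bases before the start, and Ciart has 3, of which the furthest begins 116 bases before it. Neither window holds the relaxed receptor palindrome.

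Products of type 2 immunity were among the rising genes: the cytokine Il13, mast cell proteases, eosinophil markers and secreted products of mucous cells that respond to that cytokine. Of 21 genes in a list of type 2 signals and responses 16 passed the count filter, and 4 were called higher and none lower (25.0%, against 1.55% of all genes called higher). The median of the 16 was 1.17. Members that pass the filter only through TTP-A must lie higher there, so these counts describe the list and do not test it. The count of 4 lay between 1 (without TTP-A 1 or TTP-S 4) and 7 (without TTP-A 2) in the fits with 1 TTP library removed, and was 0 without both TTP-A 4 and TTP-S 1.

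Il13, the effector cytokine of type 2 immunity, had 48 counts in all TTP-A libraries together and 8 in TTP-S, a ratio of 6.31 with a 95% interval of 2.96 to 15.4 for counting error only. Its levels were 0.772, 0.387, 0.720 and 0.370 CPM in TTP-A 1 to 4 and 0.0405, 0.123, 0.148 and 0.0492 CPM in TTP-S 1 to 4. Both groups were low and did not overlap (adjusted p = 0.0128). Ccl24, the chemokine eotaxin-2, had 1.998, 0.338, 1.06 and 1.48 CPM in TTP-A 1 to 4 and 0.243, 0.123, 0.0988 and 0.147 CPM in TTP-S 1 to 4, and TTP-A 2 lay close to the highest TTP-S library (2.93 ± 0.67, adjusted p = 0.0294). Itln1, a lectin of mucous cells, had 147 counts in TTP-A against 3 in TTP-S, a ratio of 51.5 (95% interval 17.3 to 253). It lay at 3.54, 0.387, 0.864 and 1.99 CPM in TTP-A 1 to 4 and 0.0405, 0.0412, 0.0494 and 0 CPM in TTP-S 1 to 4, and 78 of the 147 counts came from TTP-A 1. Without that library the ratio was 32.6 (95% interval 10.7 to 162). Clca1, secreted by mucous cells, lies at chr3:145004537-145032776 and had 624, 204, 517 and 404 CPM in TTP-A 1 to 4 and 35.4, 72.3, 100.3 and 136 CPM in TTP-S 1 to 4. TTP-A 2 was the lowest of its group and still above TTP-S 4, the highest of the other (2.35 ± 0.60, adjusted p = 0.0484). Il33 (0.72, adjusted p = 0.0960), its receptor Il1rl1 (1.30, adjusted p = 0.0827) and Retnla (1.97, adjusted p = 0.0933) were not called. Il13, Ccl24 and Itln1 were too low to be tested in the 8 TTP libraries alone and entered the test through the fit with the WT libraries. Itln1 passed in all 8 fits with 1 TTP library removed. Il13 did not pass without TTP-A 1 or TTP-S 4 (highest adjusted p = 0.0568). Ccl24 and Clca1 passed, of the fits with 1 TTP library removed, only in that without TTP-A 2 (highest adjusted p = 0.120 and 0.161 in that order).

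Chymases of mast cells were among the rising genes. Of 9 mast cell genes tested 3 were called higher, Mcpt1, Mcpt2 and Cma1, and none lower (33.3%, against 1.55% of all genes called higher), and the list's median was 1.43. Mcpt1, a chymase of mucosal mast cells at chr14:56017964-56020391, had 153, 38.4, 112 and 194 CPM in TTP-A 1 to 4 and 5.43, 11.2, 9.09 and 12.6 CPM in TTP-S 1 to 4. TTP-A 2 was lowest, yet above every TTP-S library (3.71 ± 0.73, adjusted p = 0.0182). Mcpt2, its neighbour 1193 bases away, had 93.6, 27.9, 72.2 and 116 CPM in TTP-A 1 to 4 and 11.3, 15.6, 12.1 and 12.7 CPM in TTP-S 1 to 4 (2.58 ± 0.58, adjusted p = 0.0279). The 2 genes are close relatives and the annotated span of Mcpt2 contains Mcpt9, so the division of reads among them is uncertain. Cma1, a chymase of the same cluster on chromosome 14, had 19.2, 8.31, 17.1 and 24.8 CPM in TTP-A 1 to 4 and 5.47, 5.89, 4.99 and 5.70 CPM in TTP-S 1 to 4 and did not overlap between groups (1.65 ± 0.43, adjusted p = 0.0488).

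Other mast cell genes were not called. Tpsb2, a tryptase, had 66.5, 22.6, 38.1 and 64.9 CPM in TTP-A 1 to 4 and 18.4, 19.6, 18.3 and 15.1 CPM in TTP-S 1 to 4, without overlap (1.43 ± 0.42, adjusted p = 0.0827). Cpa3, the mast cell carboxypeptidase, had 1.28, adjusted p = 0.172, Mcpt4, the chymase of connective tissue mast cells, 0.31, adjusted p = 0.654, and the receptor Kit -0.041, adjusted p = 0.863. Summed over the list, TTP-A libraries held 200.2 to 534 CPM and TTP-S libraries 148 to 159. The number of called members lay between 0 (without TTP-A 1 or 4 or any TTP-S library) and 4 (without TTP-A 2) in the fits with 1 TTP library removed and was 0 without both TTP-A 4 and TTP-S 1. Mcpt1 passed, of the fits with 1 TTP library removed, only in those without TTP-A 2 or 3 (highest adjusted p = 0.0635). Mcpt2 and Cma1 passed, of the fits with 1 TTP library removed, only in that without TTP-A 2 (highest adjusted p = 0.0968 and 0.164 in that order).

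Of 9 eosinophil markers only Siglecf and Alox15 passed the count filter, and both were called higher, against 1.55% of all genes. Their number called lay between 0 (without TTP-A 1 or 4 or any TTP-S library) and 2 (without TTP-A 2) in the fits with 1 TTP library removed and was 0 without both TTP-A 4 and TTP-S 1. Siglecf, an eosinophil surface lectin that tuft cells and some macrophages also carry, had 7.04, 3.91, 5.57 and 7.36 CPM in TTP-A 1 to 4 and 2.39, 2.68, 3.01 and 2.16 CPM in TTP-S 1 to 4. Every TTP-A library lay above every TTP-S library (1.22 ± 0.30, adjusted p = 0.0417). Alox15, a lipoxygenase of eosinophils, macrophages and epithelium, had 6.77, 1.21, 2.74 and 5.60 CPM in TTP-A 1 to 4 and 0.527, 0.700, 0.790 and 0.738 CPM in TTP-S 1 to 4 (2.57 ± 0.54, adjusted p = 0.0230). The granule genes Epx and Prg2 were too low to be tested. Rnase2a, of the eosinophil-associated ribonuclease family, had 186 counts in TTP-A and 3 in TTP-S, a ratio of 65.2 (95% interval 22 to 319). It was 4.68, 0.145, 0.384 and 3.33 CPM in TTP-A 1 to 4, so TTP-A 1 and TTP-A 4 held most of it, and the ratio without TTP-A 1 was 39.3 (95% interval 13 to 194). None of 11 tuft cell genes was called, and their median was 0.46. Rnase2a was too low to be tested in the 8 TTP libraries alone. Alox15 passed, of the fits with 1 TTP library removed, only in those without TTP-A 2 or 3 (highest adjusted p = 0.0939). Siglecf and Rnase2a passed, of the fits with 1 TTP library removed, only in that without TTP-A 2 (highest adjusted p = 0.150 and 0.179 in that order).

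In a list of MHC class II antigen presentation, 5 of 9 tested members were called higher and none lower (55.6%, against 1.55% of all genes called higher), with a median of 0.78. H2-Ab1, a class II chain at chr17:34263227-34269418, had 115, 66.3, 82.1 and 105 CPM in TTP-A 1 to 4 and 54.6, 58.9, 53.2 and 40.6 CPM in TTP-S 1 to 4. The groups did not overlap (0.83 ± 0.17, adjusted p = 0.0185). Cd74, the invariant chain of class II molecules, had 295, 180.3, 230 and 280.3 CPM in TTP-A 1 to 4 and 153, 159, 148 and 113 CPM in TTP-S 1 to 4 and was likewise apart (0.78 ± 0.19, adjusted p = 0.0361). H2-Aa (0.82, adjusted p = 0.0206), H2-Eb1 (0.74, adjusted p = 0.0335) and Itgax, the dendritic cell integrin CD11c (1.43, adjusted p = 0.0245), were called too, while Ciita, the activator of class II transcription, had 6.31, 2.996, 6.53 and 6.90 CPM in TTP-A 1 to 4 and 2.67, 3.87, 2.52 and 2.02 CPM in TTP-S 1 to 4 and was not called (1.03 ± 0.27, adjusted p = 0.0547). The number of called members lay between 0 (without TTP-A 1 or 4 or TTP-S 4) and 8 (without TTP-A 2) in the fits with 1 TTP library removed and was 0 without both TTP-A 4 and TTP-S 1. H2-Ab1 did not pass without TTP-A 1 or 4 or TTP-S 4 (highest adjusted p = 0.0820). H2-Aa did not pass without TTP-A 1 or 4 or TTP-S 2 or 4 (highest adjusted p = 0.0883). Itgax passed, of the fits with 1 TTP library removed, only in those without TTP-A 2 or 3 (highest adjusted p = 0.101). H2-Eb1 and Cd74 passed, of the fits with 1 TTP library removed, only in that without TTP-A 2 (highest adjusted p = 0.144 and 0.146 in that order).

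Other immune lists had few called members. Of 21 interferon-responsive genes none was called and their median was -0.027. Of 15 macrophage genes 1 was called (6.67%, against 2.90% of all genes), and it fell: Cd163, the haemoglobin scavenger receptor that glucocorticoids induce, had 2.04, 4.01, 3.12 and 2.83 CPM in TTP-A 1 to 4 and 6.56, 8.44, 6.77 and 5.61 CPM in TTP-S 1 to 4 (-1.19 ± 0.23, adjusted p = 0.0154), and the list's median was 0.23. Of 14 T cell genes 8 were tested and 1 was called (12.5%), Foxp3 of regulatory T cells (0.576 to 0.834 CPM in TTP-A against 0.288 to 0.446 CPM in TTP-S, log2 fold change 0.97, adjusted p = 0.0473), which shares 1435 bases with Ccdc22. Of 13 neutrophil genes 4 were tested, of 11 B and plasma cell genes 5, and of 8 natural killer genes 2, and none was called. The medians of these 3 lists were 0.57, 1.085 and 1.37 in that order, and that of the 8 T cell genes was 1.05. Here too, members that pass the filter only through TTP-A must lie higher there. Of 20 chemokines tested 3 were called higher, Ccl24, Ccl2 (1.36, adjusted p = 0.0246) and Cxcl14 (0.58, adjusted p = 0.0359), against 1.55% of all genes called higher. The number of called chemokines lay between 0 (without TTP-A 1, 3 or 4 or any TTP-S library) and 3 (without TTP-A 2) in the fits with 1 TTP library removed. Cd163 did not pass without TTP-A 1 or 4 or TTP-S 2 (highest adjusted p = 0.0628). Foxp3, Ccl2 and Cxcl14 passed, of the fits with 1 TTP library removed, only in that without TTP-A 2 (highest adjusted p = 0.179, 0.0913 and 0.115 in that order).

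Reported targets of TTP were mostly too low to be tested. Of 17 such cytokine and prostaglandin genes 7 passed the filter, and 1 was called higher (14.3%), against 1.55% of all genes. All 7 had values above 0, with a median of 0.80. Members that pass the filter only through TTP-A must lie higher there. Ier3 (0.35, adjusted p = 0.054) and Vegfa (0.25, adjusted p = 0.0957) were not called, though their groups did not overlap. The number called lay between 0 (without TTP-A 1, 3 or 4 or TTP-S 1, 2 or 4) and 2 (without TTP-A 2) in the fits with 1 TTP library removed. The called gene was Ccl2, with 1.14, 0.918, 1.44 and 1.57 CPM in TTP-A 1 to 4 and 0.486, 0.494, 0.445 and 0.541 CPM in TTP-S 1 to 4. The groups did not overlap, but all values were low. Tnf had 0.454, 0.387, 0.624 and 0.232 CPM in TTP-A 1 to 4 and 0.203, 0.247, 0.0988 and 0.0492 CPM in TTP-S 1 to 4 and was not called (1.42 ± 0.43, adjusted p = 0.0898), and Il1b (0.80, adjusted p = 0.111), Cxcl1 (0.90, adjusted p = 0.631) and Ptgs2 (0.38, adjusted p = 0.435) were not called either. Among 23 genes of mRNA decay through AU-rich elements 1 was called, a share of 4.35%, near the 2.90% of all genes. Zfp36l2, a paralogue of Zfp36, had 188, 144, 169 and 162 CPM in TTP-A 1 to 4 and 127, 122, 120.1 and 118 CPM in TTP-S 1 to 4 (0.44 ± 0.080, adjusted p = 0.0117). Of 23 immediate early genes, whose transcripts are short-lived, 3 were called higher, Egr2 (1.49, adjusted p = 0.0229), Atf3 (0.88, adjusted p = 0.0222) and Cyr61 (1.07, adjusted p = 0.0283), against 1.55% of all genes called higher. That number lay between 0 (without TTP-S 2 or 4) and 5 (without TTP-A 2) in the fits with 1 TTP library removed. Fos (0.27, adjusted p = 0.805) and Jun (-0.17, adjusted p = 0.650) were not. Zfp36l2 did not pass without TTP-A 1 (highest adjusted p = 0.0505). Egr2 did not pass without TTP-A 1 or TTP-S 2, 3 or 4 (highest adjusted p = 0.0970). Cyr61 passed, of the fits with 1 TTP library removed, only in those without TTP-A 1 or 2 or TTP-S 1 (highest adjusted p = 0.104). Atf3 passed, of the fits with 1 TTP library removed, only in those without TTP-A 2 or TTP-S 3 (highest adjusted p = 0.0807).

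**Figure D3:**
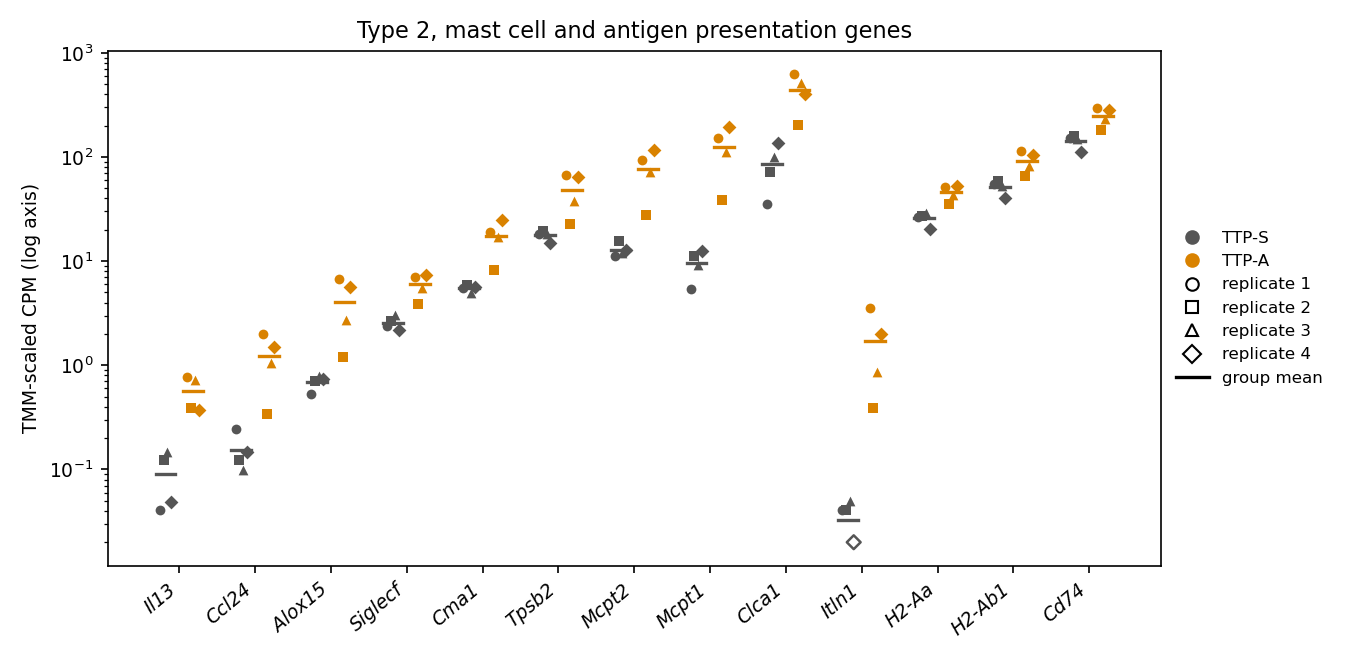
TMM-scaled CPM (log axis) of 13 type 2, mast cell and antigen presentation genes in the 4 TTP-S libraries (grey) and 4 TTP-A libraries (orange), with group means as bars. The open symbol marks a value of 0 (Itln1 in TTP-S 4), drawn at 0.02 CPM. TTP-A 2 (square) is the lowest orange point for most genes, for example 38.4 CPM of Mcpt1 against 194 in TTP-A 4.

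In the epithelium a gland mucin rose and a surface mucin fell. Muc6, the mucin of mucous neck and SPEM cells, lies at chr7:141633459-141655393 and had 3279, 617, 1169 and 1964 CPM in TTP-A 1 to 4 and 271, 474, 405 and 460.3 CPM in TTP-S 1 to 4. TTP-A 1 held most and TTP-A 2 least, and all 4 lay above TTP-S (2.12 ± 0.50, adjusted p = 0.0352). Muc5ac, the foveolar mucin, lies 133565 bases away at chr7:141788958-141819227 and had 2523, 5301, 3770 and 2940 CPM in TTP-A 1 to 4 and 6176, 7712, 7509 and 8586 CPM in TTP-S 1 to 4. Here TTP-A 1 was lowest and TTP-A 2 highest of TTP-A, all below TTP-S (-1.04 ± 0.22, adjusted p = 0.0228). The WT values had the same signs, 0.73 (adjusted p = 0.278) for Muc6 and -0.55 (adjusted p = 0.0859) for Muc5ac. Muc5ac passed, of the fits with 1 TTP library removed, only in those without TTP-A 2 or TTP-S 1 (highest adjusted p = 0.0919). Muc6 passed, of the fits with 1 TTP library removed, only in that without TTP-A 2 (highest adjusted p = 0.150).

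Of 13 SPEM and neck cell genes 3 were called higher, Muc6, Gpx2 and Sox9, and none lower (23.1%, against 1.55% of all genes called higher), with a median of 0.41. Gpx2, an epithelial glutathione peroxidase, had 185, 113, 151 and 163 CPM in TTP-A 1 to 4 and 81.9, 86.3, 86.3 and 91.3 CPM in TTP-S 1 to 4, without overlap (0.82 ± 0.20, adjusted p = 0.0369). Sox9, a progenitor transcription factor, had 126, 99.8, 113 and 98.2 CPM in TTP-A 1 to 4 and 83.98, 78.02, 80.6 and 87.97 CPM in TTP-S 1 to 4 (0.41 ± 0.093, adjusted p = 0.0297). Tff2, the peptide after which SPEM is named, was not called (-0.20, adjusted p = 0.648), nor were Cd44 (0.56, adjusted p = 0.184), Aqp5 (1.78, adjusted p = 0.148) and Gkn3 (0.66, adjusted p = 0.581). Summed over the list, TTP-A held 4020 to 7218 CPM and TTP-S 3206 to 3825. The number of called members lay between 0 (without TTP-A 1, 3 or 4 or any TTP-S library) and 4 (without TTP-A 2) in the fits with 1 TTP library removed and was 0 without both TTP-A 4 and TTP-S 1. Gpx2 and Sox9 passed, of the fits with 1 TTP library removed, only in that without TTP-A 2 (highest adjusted p = 0.149 and 0.129 in that order).

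Of 15 foveolar genes 2 were called lower, Muc5ac and Foxq1, a forkhead factor of surface cells (13.3%, against 1.35% of all genes), and the median was -0.21. The number called lay between 0 (without TTP-A 1, 3 or 4 or TTP-S 3 or 4) and 7 (without TTP-A 2) in the fits with 1 TTP library removed, and was 0 without both TTP-A 4 and TTP-S 1. Foxq1 had 128, 195, 145 and 130.1 CPM in TTP-A 1 to 4 and 249.8, 219.5, 253 and 246 CPM in TTP-S 1 to 4, without overlap (-0.70 ± 0.14, adjusted p = 0.0198). The abundant products Gkn1 (-0.39, adjusted p = 0.104), Gkn2 (-0.52, adjusted p = 0.0739) and Tff1 (-0.55, adjusted p = 0.102) were not called. Of 16 parietal cell genes none was called and the median was -0.14. Of 6 chief cell genes Bhlha15 (MIST1), the transcription factor of zymogenic cells, was the 1 called (against 2.90% of all genes), and it rose, with 61.4, 55.3, 77.1 and 61.7 CPM in TTP-A 1 to 4 and 47.96, 40.4, 35.8 and 36.8 CPM in TTP-S 1 to 4 (0.67 ± 0.16, adjusted p = 0.0390). Pgc (-0.16, adjusted p = 0.836) and Gif (-0.053, adjusted p = 0.936), the chief cell products, were not called. None of 16 endocrine, 20 mitosis or 21 DNA replication genes was called, and the medians were 0.038, 0.059 and -0.091. Foxq1 passed, of the fits with 1 TTP library removed, only in those without TTP-A 2 or TTP-S 1 or 2 (highest adjusted p = 0.0896). Bhlha15 passed, of the fits with 1 TTP library removed, only in those without TTP-A 2 or TTP-S 1 (highest adjusted p = 0.130).

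Of 24 tested transcription factors of gastric epithelial identity, 8 were called higher and 1, Foxq1, lower (37.5% called, against 2.90% of all genes), and 15 were not called. The list's median was 0.15. Spdef, a driver of mucous secretory cells, had 146, 61.5, 73.9 and 97.1 CPM in TTP-A 1 to 4 and 41.2, 47.2, 46.8 and 46.6 CPM in TTP-S 1 to 4 (1.06 ± 0.26, adjusted p = 0.0448). The other 7 rose less: Sox9, Bhlha15, Hnf4a (0.34, adjusted p = 0.0457), Klf5 (0.30, adjusted p = 0.0267), Foxa1 (0.28, adjusted p = 0.0260), Gata4 (0.27, adjusted p = 0.0417) and Xbp1 (0.25, adjusted p = 0.0385). Foxa1 shares 1326 bases with Ttc6, and reads there are of uncertain origin. Gata4, a factor of gastric epithelium, had 384 to 481 CPM in TTP-A against 346 to 366 CPM in TTP-S. The number of called members lay between 0 (without TTP-A 1, 3 or 4 or TTP-S 4) and 9 (without TTP-A 2) in the fits with 1 TTP library removed and was 0 without both TTP-A 4 and TTP-S 1. Foxa1 passed, of the fits with 1 TTP library removed, only in those without TTP-A 2 or TTP-S 3 (highest adjusted p = 0.0994). Spdef, Hnf4a, Klf5, Gata4 and Xbp1 passed, of the fits with 1 TTP library removed, only in that without TTP-A 2 (highest adjusted p = 0.185, 0.175, 0.110, 0.134 and 0.138 in that order).

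Some secreted and transport genes of the epithelium rose steeply and unevenly. Pigr, which carries IgA across the epithelium, lies at chr1:130826684-130852249 and had 546, 67.6, 40.05 and 288 CPM in TTP-A 1 to 4 and 15.7, 7.45, 11.1 and 10.9 CPM in TTP-S 1 to 4. TTP-A 1 and TTP-A 4 held several times the level of TTP-A 2 and TTP-A 3, which were still above TTP-S (4.38 ± 0.96, adjusted p = 0.0260). Slc9a3, the apical sodium-proton exchanger NHE3, had 31.4, 7.92, 2.98 and 14.8 CPM in TTP-A 1 to 4 and 1.94, 0.824, 0.741 and 0.738 CPM in TTP-S 1 to 4 (3.71 ± 0.82, adjusted p = 0.0267). TTP-S 1 was the highest TTP-S library there. Bpifb1, a secreted airway and gastric defence protein, had 1067, 328, 286 and 706 CPM in TTP-A 1 to 4 and 225, 142, 147 and 195 CPM in TTP-S 1 to 4, and all TTP-A libraries were higher (1.75 ± 0.45, adjusted p = 0.0484). Of 19 antimicrobial genes 11 were tested, with a median of 0.89. Of these, 3 were called higher, Pigr, Itln1 and the nitric oxide synthase Nos2 (1.48, adjusted p = 0.0245), a share of 27.3% against 1.55% of all genes called higher. As in the type 2 list, members that pass the filter only through TTP-A must lie higher there. The number called lay between 1 (without TTP-A 1 or 4 or TTP-S 1, 2 or 4) and 5 (without TTP-A 2) in the fits with 1 TTP library removed, and was 0 without both TTP-A 4 and TTP-S 1. Nos2 passed, of the fits with 1 TTP library removed, only in those without TTP-A 2 or TTP-S 3 (highest adjusted p = 0.0931). Pigr, Slc9a3 and Bpifb1 passed, of the fits with 1 TTP library removed, only in those without TTP-A 2 or 3 (highest adjusted p = 0.0996, 0.114 and 0.200 in that order). Without TTP-A 1 the log2 fold change was 3.54 for Pigr and 2.98 for Slc9a3.

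Col6a5, a collagen VI chain, had 332, 50.4, 135 and 256 CPM in TTP-A 1 to 4 and 18.7, 28.8, 27.96 and 27.5 CPM in TTP-S 1 to 4, and TTP-A lay above TTP-S in every library (2.91 ± 0.52, adjusted p = 0.0118). None of 16 other collagen genes tested was called, with a median of 0.068. Further large rises by the naming rule were Anxa8 (4.30 to 23.2 CPM in TTP-A against 0.590 to 2.998 CPM in TTP-S), Npy4r, the pancreatic polypeptide receptor (4.61 to 22.6 CPM in TTP-A against 1.46 to 1.94 CPM in TTP-S), Myh7b (1.10 to 4.91 CPM in TTP-A against 0.0494 to 0.197 CPM in TTP-S), Eci3 (0.821 to 2.63 CPM in TTP-A against 0.121 to 0.393 CPM in TTP-S) and Cyp2d34 (0.773 to 2.02 CPM in TTP-A against 0.147 to 0.395 CPM in TTP-S). Of 13 tested EGF receptor ligands and ERBB receptors, 2 were called higher, Hbegf (0.64, adjusted p = 0.0294) and Nrg1 (0.80, adjusted p = 0.0417), a share of 15.4% against 1.55% of all genes. Only 5 of the 13 had values above 0, and the list's median was -0.039. The number called lay between 0 (without TTP-A 1, 3 or 4 or TTP-S 2, 3 or 4) and 2 (without TTP-A 2) in the fits with 1 TTP library removed. Nupr1, a stress-induced nuclear protein of the ATF4 list, had 424, 190.3, 256 and 426 CPM in TTP-A 1 to 4 and 147, 134, 148 and 145 CPM in TTP-S 1 to 4 (1.17 ± 0.19, adjusted p = 0.00604). Col6a5, Myh7b and Nupr1 passed in all 8 fits with 1 TTP library removed. Anxa8 passed, of the fits with 1 TTP library removed, only in those without TTP-A 2 or 3 or TTP-S 1 (highest adjusted p = 0.116). Cyp2d34 passed, of the fits with 1 TTP library removed, only in those without TTP-A 2 or TTP-S 3 (highest adjusted p = 0.0826). Hbegf passed, of the fits with 1 TTP library removed, only in those without TTP-A 2 or TTP-S 1 (highest adjusted p = 0.127). Npy4r and Eci3 passed, of the fits with 1 TTP library removed, only in those without TTP-A 2 or 3 (highest adjusted p = 0.101 and 0.0943 in that order). Nrg1 passed, of the fits with 1 TTP library removed, only in that without TTP-A 2 (highest adjusted p = 0.155). The log2 fold change of Npy4r fell from 2.64 to 2.01 without TTP-A 1, and that of Anxa8 went from 3.21 to 3.99 without TTP-S 1.

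**Figure D4:**
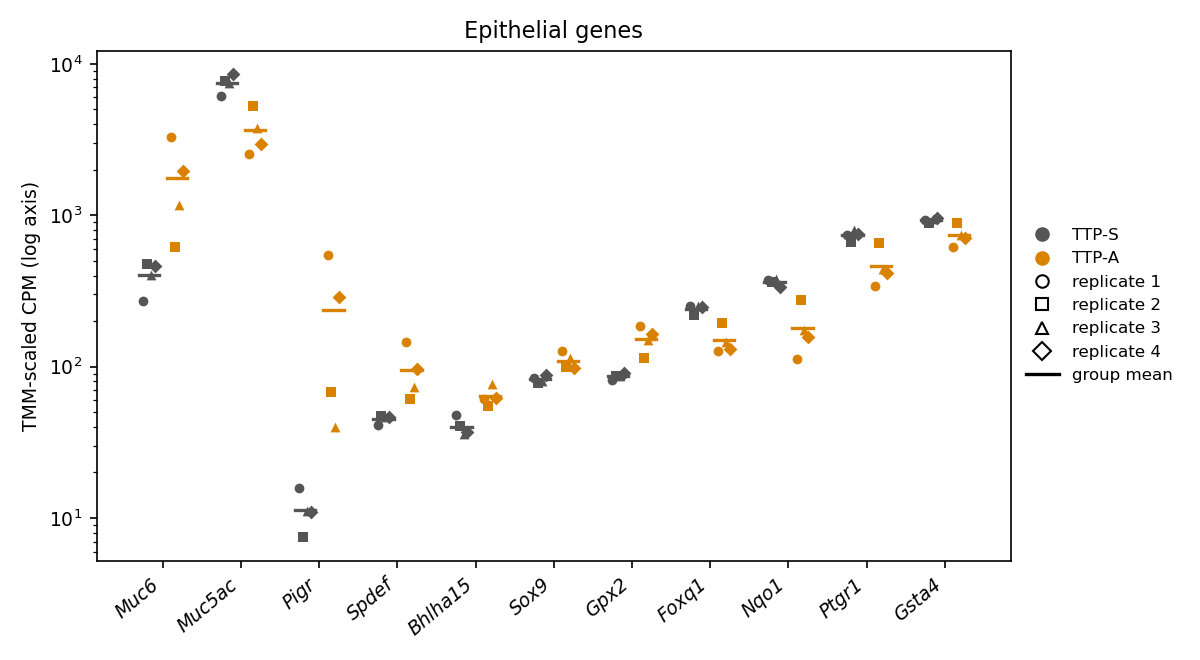
TMM-scaled CPM (log axis) of 11 epithelial genes in the 4 TTP-S libraries (grey) and 4 TTP-A libraries (orange), with group means as bars. Muc6 rises from 271 to 474 CPM in TTP-S to between 617 and 3279 in TTP-A, while Muc5ac falls, and in both TTP-A 2 (square) lies nearest to TTP-S.

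Detoxifying and redox enzymes were among the abundant genes that fell. Nqo1, a quinone reductase, had 113, 274, 174 and 157 CPM in TTP-A 1 to 4 and 374, 363, 378 and 338 CPM in TTP-S 1 to 4. TTP-A 2 was the nearest to TTP-S and TTP-A 1 the furthest (-1.02 ± 0.25, adjusted p = 0.0417). Ptgr1, a reductase of prostaglandins and aldehydes, had 343, 657, 442 and 418 CPM in TTP-A 1 to 4 and 744, 671, 801 and 751 CPM in TTP-S 1 to 4 (-0.67 ± 0.17, adjusted p = 0.0486). Gsta4, a glutathione transferase, had 618, 885, 741 and 705 CPM in TTP-A 1 to 4 and 932, 891, 943 and 955 CPM in TTP-S 1 to 4 and a small fall (-0.34 ± 0.086, adjusted p = 0.0485). Mgst3 (-0.38, adjusted p = 0.0433), Sptssb, a subunit of the enzyme that starts sphingolipid synthesis (-1.01, adjusted p = 0.0246), and Tmsb4x, an actin-binding peptide (-0.37, adjusted p = 0.0251), also fell. Of 16 NRF2 and glutathione genes tested only Nqo1 and Gpx2 were called, in opposite directions (12.5%, against 2.90% of all genes), with a median of -0.15. The number of these genes called lay between 0 (without TTP-A 1, 3 or 4 or any TTP-S library) and 6 (without TTP-A 2) in the fits with 1 TTP library removed. Nqo1, Ptgr1, Gsta4, Mgst3, Sptssb and Tmsb4x passed, of the fits with 1 TTP library removed, only in that without TTP-A 2 (highest adjusted p = 0.154, 0.179, 0.169, 0.171, 0.0942 and 0.103 in that order).

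The fatty acid and respiratory chain lists had small negative values with few or no calls. Of 24 fatty acid uptake and oxidation genes 23 had values below 0, with a median of -0.24, and 2 were called lower, Pdk4 and Acsl1 (-0.33, adjusted p = 0.0483), a share of 8.33% against 1.35% of all genes. Their number lay between 1 (without TTP-A 1, 3 or 4 or any TTP-S library) and 7 (without TTP-A 2) in the fits with 1 TTP library removed. All 23 tested respiratory chain subunits had values below 0, with a median of -0.12, and none was called. Herpud1, of the ER degradation machinery, fell (-0.55 ± 0.092, adjusted p = 0.00733) with 265, 250, 312 and 272 CPM in TTP-A 1 to 4 and 356, 466, 389 and 400.3 CPM in TTP-S 1 to 4, although the median of 22 ER folding genes was 0.028 and Xbp1 was the 1 of them called higher. Vldlr (-0.45, adjusted p = 0.0417), Stc2 (-0.38, adjusted p = 0.0260) and the sodium channel subunit Scnn1g (-1.17, adjusted p = 0.0360) were lower. Herpud1 passed in all 8 fits with 1 TTP library removed. Vldlr and Stc2 passed, of the fits with 1 TTP library removed, only in those without TTP-A 2 or 3 (highest adjusted p = 0.161 and 0.101 in that order). Acsl1 and Scnn1g passed, of the fits with 1 TTP library removed, only in that without TTP-A 2 (highest adjusted p = 0.167 and 0.148 in that order).

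Adipocyte markers differed between the groups. Of 11 tested, 4 were called lower and none higher (36.4%, against 1.35% of all genes called lower), with a median of -0.79 in TTPΔARE. The WT median was 0.10 and became -0.34 without WT-A 3 and WT-A 4, whose base composition differed from that of the other libraries. Summed, they held 203 to 328 CPM in TTP-A and 368 to 591 CPM in TTP-S, without overlap. In WT the sums were 253, 241, 413 and 452 CPM in WT-A 1 to 4 and 275 to 352 CPM in WT-S, so WT-A 1 and 2 lay below WT-S and WT-A 3 and 4 above it. Cfd (adipsin) had 30.7, 31.6, 16.8 and 20.1 CPM in TTP-A 1 to 4 and 47.9, 68.3, 66.3 and 87.7 CPM in TTP-S 1 to 4 (-1.45 ± 0.36, adjusted p = 0.0417). Pck1 (-2.44, adjusted p = 0.0485), Fabp4 (-0.68, adjusted p = 0.0208) and Plin4 (-0.60, adjusted p = 0.0446) were the others, and Adipoq, the defining adipocyte hormone, had 12.5, 9.32, 4.51 and 8.29 CPM in TTP-A 1 to 4 and 12.03, 18.1, 15.96 and 26.1 CPM in TTP-S 1 to 4 and was not called (-1.05 ± 0.33, adjusted p = 0.0954). The part of fat tissue in the falls of Pdk4, Zbtb16, Hif3a and the fatty acid genes was not tested. The number of called markers lay between 0 (without TTP-A 1, 3 or 4 or TTP-S 2 or 4) and 3 (without TTP-A 2 or TTP-S 1) in the fits with 1 TTP library removed and was 0 without both TTP-A 4 and TTP-S 1. Fabp4 passed, of the fits with 1 TTP library removed, only in those without TTP-A 2 or TTP-S 1 or 3 (highest adjusted p = 0.0831). Plin4 passed, of the fits with 1 TTP library removed, only in those without TTP-A 2 or TTP-S 1 (highest adjusted p = 0.153). Cfd passed, of the fits with 1 TTP library removed, only in that without TTP-A 2 (highest adjusted p = 0.139). Pck1 passed, of the fits with 1 TTP library removed, only in that without TTP-S 1 (highest adjusted p = 0.167). Without TTP-A 1 the log2 fold change of Pck1 was -3.19.

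Single members of the skeletal muscle, neuron and glia, fibroblast and pancreas lists were called. These were 1 of 5, 1 of 10, 1 of 9 and 1 of 8 tested members in that order, against 2.90% of all genes. The medians were 0.079, -0.11, -0.075 and -0.031 in the same order. Only 4 of the 10 neuron and glia genes and 2 of the 9 fibroblast genes had values above 0, although the called member of each rose. Acta1, skeletal actin, had 2.002, adjusted p = 0.0499, Gfap 0.95, adjusted p = 0.0456, Pdgfra 0.43, adjusted p = 0.0408 and the elastase Cela1 -0.46, adjusted p = 0.0352. No member of the smooth muscle, endothelial, squamous, claudin or iron lists was called. The adrenal steroid synthesis genes Cyp11b1 and Cyp21a1 were too low to be tested. Pdgfra and Cela1 passed, of the fits with 1 TTP library removed, only in those without TTP-A 2 or TTP-S 1 (highest adjusted p = 0.153 and 0.144 in that order). Acta1 and Gfap passed, of the fits with 1 TTP library removed, only in that without TTP-A 2 (highest adjusted p = 0.179 and 0.172 in that order).

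**Figure D5:**
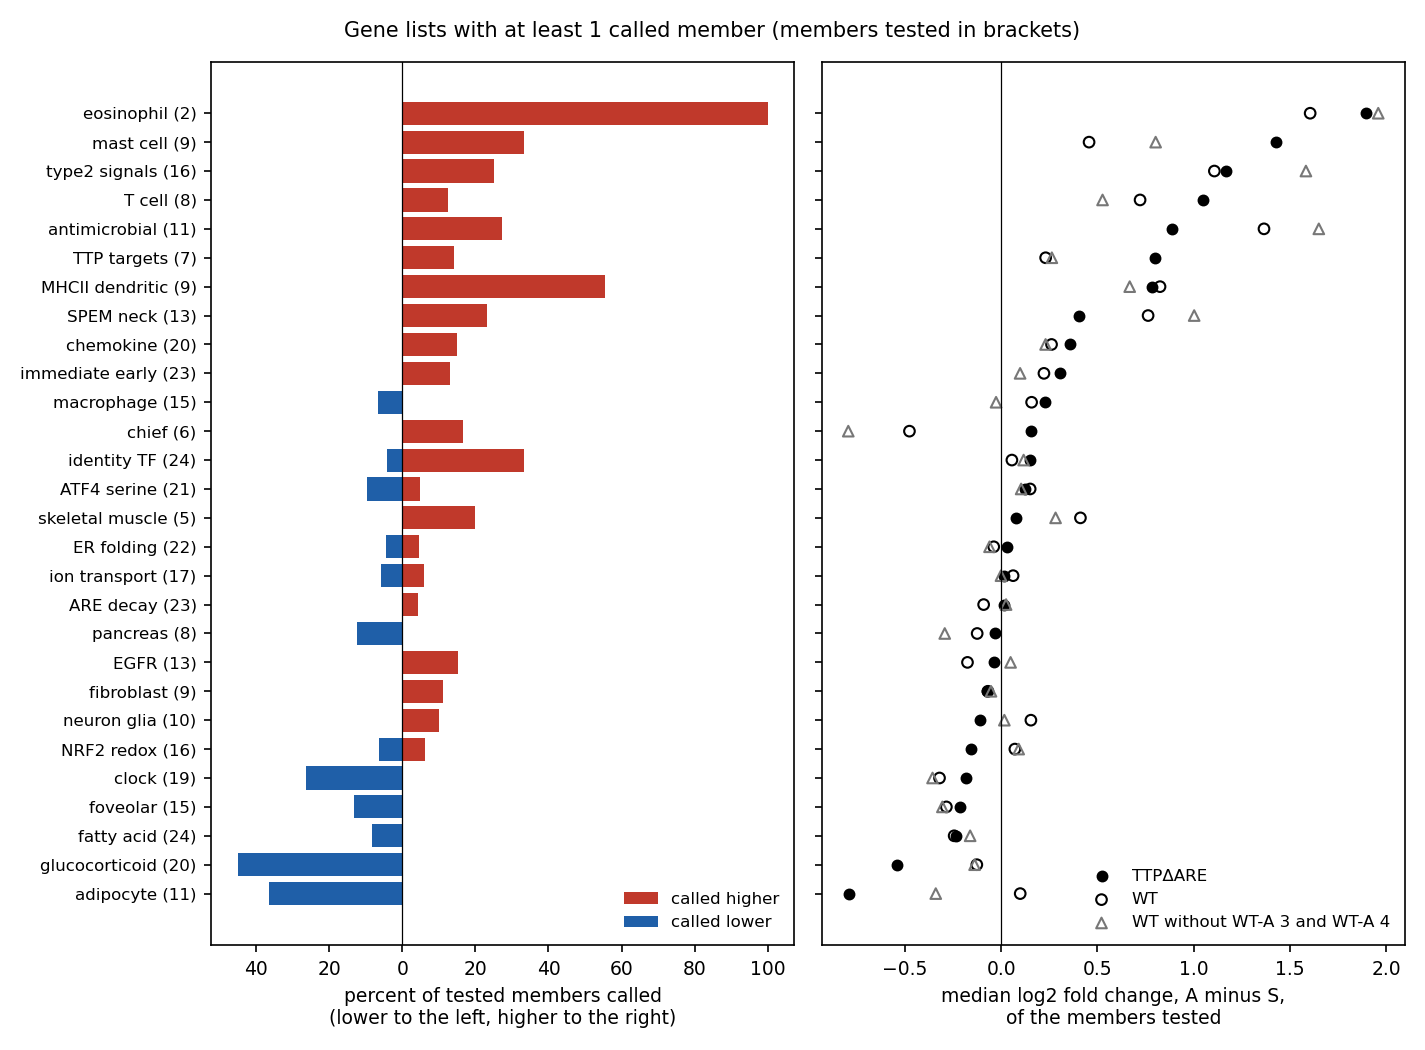
For each gene list with at least 1 called member, bars on the left give the percent of tested members called lower (blue, to the left) and higher (red, to the right), and points on the right give the median log2 fold change, A minus S, in TTPΔARE (filled), WT (open circles) and WT without WT-A 3 and WT-A 4 (triangles). The glucocorticoid list has 45.0% of its 20 tested members lower and none higher, and the adipocyte list has a median of -0.79 in TTPΔARE, with WT medians of 0.10 and, without those 2 libraries, -0.34.

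Whether the response of TTPΔARE mice differed from that of WT mice was asked by the interaction of genotype and treatment in the same fit. Of 15385 genes 9 were called in it (0.0585%), and none of these 9 was among the 446. The WT contrast called 2891 genes (18.8%), a count that cannot be set against 446 as a size of response because WT-A 3 and WT-A 4 stand apart in base composition: across 11498 genes, the rank correlation between GC content and the departure of a library from the gene's median was 0.716 and 0.738 there, against -0.212 to 0.085 in the 8 TTP libraries. Without WT-A 3 and WT-A 4 the WT contrast called 1620 genes and the TTPΔARE contrast 977. With each genotype fitted alone the counts were 675 in WT and 1195 in TTPΔARE, so their order turned. Without WT-A 3 and WT-A 4 the interaction called 46 genes, and 7 of them were among the 446: Adgrg6, Apobec1, Bhlha15, Cyp1b1, Nkx6-3, Pdk4 and Sult1a1 (listed after their values were seen). It called 4 genes without TTP-A 1, 26 without TTP-A 2, 4 without TTP-A 4, 4 without TTP-S 1 and 5 without TTP-S 2. It called 2 without replicate 3 or replicate 4 of either S group, 211 without WT-A 1, 4 without WT-A 3, 42 without WT-A 4, 25 without WT-S 1 and 4 without WT-S 2. Of the 239 genes called higher 224 had a positive WT value, and of the 207 called lower 171 had a negative one. Without WT-A 3 and WT-A 4 these numbers were 227 and 180.

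Of the 112 called genes among those named, 9 had a WT value of the other sign, Bhlha15, Cela1, Cfd, Fabp4, Map3k6, Nrg1, Pck1, Sult1a1 and Xbp1, and without WT-A 3 and WT-A 4 the number was 6. Bhlha15 had 0.67 in TTPΔARE and -0.28 in WT, an interaction of 0.94 (adjusted p = 0.121), and without those 2 libraries the interaction was 1.25 (adjusted p = 0.00988). For Sult1a1 the interaction was -1.20 (adjusted p = 0.123) and became -1.53 (adjusted p = 0.00988), and for Pdk4 it was -0.85 (adjusted p = 0.133) and became -1.09 (adjusted p = 0.0317). Per1 had -1.69 in WT (adjusted p = 6.05e-06) and an interaction of 0.11 (adjusted p = 0.772). Fkbp5 had -0.72 in WT (adjusted p = 0.0105) and an interaction of -0.68 (adjusted p = 0.221). Mcpt1 had 1.61 in WT (adjusted p = 0.0901) and an interaction of 2.10 (adjusted p = 0.309), so the difference between genotypes did not pass the threshold. Clca1 had 1.77 in WT (adjusted p = 0.0456; interaction 0.58, adjusted p = 0.739), and H2-Ab1 had 0.83 (adjusted p = 0.00518; interaction 0.0028, adjusted p = 0.996). Among genes that pass the threshold in TTPΔARE, Nqo1 had -0.72 in WT (adjusted p = 0.0529), with an interaction of -0.29 (adjusted p = 0.691).

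Dmbt1, a secreted mucosal scavenger receptor, had the lowest interaction value of the 9 called genes. It had 157, 249, 119 and 122 CPM in TTP-A 1 to 4 and 241, 231, 206 and 306 CPM in TTP-S 1 to 4, with overlap between the groups. The log2 fold change was -0.61 in TTPΔARE (adjusted p = 0.188) and 1.39 in WT (adjusted p = 0.00226), an interaction of -1.999 (adjusted p = 0.0350). In WT it ranged over 234 to 455 CPM in WT-A and 109.5 to 157 CPM in WT-S. Krt7, a simple keratin, had -0.40 in TTPΔARE, 1.39 in WT and an interaction of -1.79 (adjusted p = 0.0415), and Eln, elastin, had -0.26, 0.98 and -1.24 (adjusted p = 0.0350). Without WT-A 3 and WT-A 4 the interaction was -2.27 for Dmbt1 (adjusted p = 0.00727). In the other direction, Creg2 had 0.14 in TTPΔARE, -1.55 in WT and an interaction of 1.69 (adjusted p = 0.00795). Aldh1l2, a mitochondrial folate enzyme, had 0.30, -0.93 and 1.23 (adjusted p = 0.0415), and Erdr1 had -1.07, -4.41 and 3.34 (adjusted p = 0.0188). In WT-A Erdr1 lay at 0.0869 to 0.780 CPM, against 3.81 to 7.63 CPM in TTP-A. Creg2 passed in the interaction with any 1 library removed, Erdr1 did not without replicate 3 or 4 of either S group (highest adjusted p = 0.0655), and the other 4 genes did not without TTP-A 1, TTP-A 4 or any TTP-S library, among others (highest adjusted p = 0.124 for Dmbt1, 0.137 for Krt7, 0.124 for Eln and 0.137 for Aldh1l2).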

How the data were processed

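Per the submitters' processing notes, reads were processed with STAR 2.7.0f, featureCounts of Subread 1.6.4 and DESeq2 on the mm10 build, and libraries came from an Illumina TruSeq kit. The deposited table holds raw counts of reads per gene for all 16 libraries, and how the authors treated strand, multimapping reads and annotation is not given in the sources used here. All rows carry a gene symbol. From these counts, edgeR 4.0.16 (R 4.3.3) was run on all 16 libraries in 4 groups, so that the groups share 1 estimate of the spread: filterByExpr, TMM scaling, quasi-likelihood F test, Benjamini-Hochberg adjustment over 15385 genes, threshold 0.05. SE are implied by the fold change and F. Exact permutation tests were two-sided. Counting intervals are exact binomial at 95%, and cover counting error only.

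Members and gene lists (46 lists, 694 symbols, 693 found, 3 of them under another symbol) were chosen with earlier results of these data known. Some genes were chosen after their values were seen, as said where they appear, and some are named only for an overlapping annotation. Apart from these, list members and Zfp36, named genes follow a rule. It used called genes with a mean of at least 1 CPM in the higher group and no overlap. Of these it took the 15 largest rises, 15 largest falls, 15 smallest p-values and 10 most abundant. It added the 3 highest and 3 lowest interaction values among genes called in the interaction. Unnamed gene models were passed over, and 1 gene that the rule picks is not reported here. Coordinates and promoter windows are RefSeq's on GRCm38.p6, the same build as mm10, found for 98.2% of tested genes. GC content is that of the longest GENCODE M21 transcript. The edgeR step was tested on simulated data. Alternatives were DESeq2 1.42.0, limma voom 3.58.1, other size factors, filters, minimum fold, sets of libraries and a replicate block.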

Additional observations from a re-analysis of the deposited data

Results flagged for a closer look

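A library far from the other 3 of its group was looked for in 252 groups of 4 values, those of the named genes, and 10 were found (chance gives about 1 in 20 groups). Zbtb16 was low in TTP-A 3 (3.36 CPM), Ces2a high in TTP-A 2 (8.26 CPM), Ciita low in TTP-A 2 (2.996 CPM) and Atf3 high in TTP-A 3 (30.4 CPM). In TTP-S 1, Slc9a3 (1.94 CPM) was high and Col6a5 (18.7 CPM) and Spdef (41.2 CPM) were low. In TTP-S 3, Mgst3 was low (488 CPM) and St3gal4 high (8.70 CPM), and Laptm5 was low in TTP-S 4 (13.1 CPM).

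The response in TTPΔARE differed from that in WT by the interaction test in edgeR for Dmbt1 (-1.999 on the log2 scale, adjusted p = 0.0350), Krt7 (-1.79, adjusted p = 0.0415), Eln (-1.24, adjusted p = 0.0350), Aldh1l2 (1.23, adjusted p = 0.0415), Creg2 (1.69, adjusted p = 0.00795) and Erdr1 (3.34, adjusted p = 0.0188). Creg2 passed in each of the 16 fits with 1 library removed. Erdr1 did not pass without replicate 3 or 4 of either S group (highest adjusted p = 0.0655). Dmbt1, Krt7, Aldh1l2 and Eln did not pass without TTP-A 1 or 4, any TTP-S library, WT-A 3 or WT-S 2, 3 or 4, nor, for the first 3 of these, without TTP-A 3 or WT-A 2 (highest adjusted p = 0.124, 0.137, 0.137 and 0.124).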

How the results depend on the processing

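The count of 446 called genes moved by over 1.5 times under several alternatives. DESeq2's Wald test called 863 genes, limma voom with sample weights 2346, the 8 TTP libraries fitted alone 1195, the fit without WT-A 3 and WT-A 4 977, and the fit without TTP-A 4 and TTP-S 1, chosen after seeing the data, 53. A minimum log2 fold change of 1 left 0 genes (2440 had an unadjusted p under 0.05 in the edgeR fit with no minimum). With 1 library left out the count ran from 60 to 937. With DESeq2 size factors it was 440, with no filter 370 and with at least 10 counts in every library of a group 481. All 446 kept their sign in every fit that left out 1 library, and none of the 125 named genes for which the alternatives were run changed sign, whereas Zfp36 did. The interaction count of 9 became 262 by DESeq2, 171 by voom, 46 without WT-A 3 and WT-A 4, 1 without TTP-A 4 and TTP-S 1, 4 with the replicate block and 0 with the minimum fold, and ran from 2 to 211 with 1 library left out. The WT count of 2891 became 675 in the 8 WT libraries alone, 1620 without WT-A 3 and WT-A 4 and 2 with the minimum fold, and ran from 1254 to 4977. The causes of these shifts were not tested. Zfp36 had log2 values of -0.000356 by voom and -0.011 without TTP-A 4 and TTP-S 1, and -0.026 to 0.055 with 1 library left out (-0.026 without TTP-A 1, -0.017 without TTP-A 2 and -0.022 without TTP-S 1), all far from the threshold.

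Of the 112 called genes among the 125 named ones, 108 were called in the 8 TTP libraries alone, where the other 4 (Il13, Itln1, Ccl24 and Rnase2a) were too low to be tested, 112 without WT-A 3 and WT-A 4, 111 by DESeq2, 33 without TTP-A 1 and 30 in all 8 fits with 1 TTP library removed. Replicate numbers did not pair the libraries: same-numbered TTP-A and TTP-S libraries correlated at -0.109, -0.103, 0.318 and -0.409, and 1 of 4 TTP-A libraries correlated best with its own number. A replicate block called 427 genes, 352 of them among the 446, and 95 of the 112. Depth limits the genes under about 1 CPM, such as Il13, whose 8 counts in TTP-S leave a wide interval.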

Other observations

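The genes of this section were chosen after their values were seen, and the values are given without a test of any group. Enzymes that modify drugs and other foreign compounds mostly had lower values in TTP-A. In 7 families picked by symbol (cytochrome P450, flavin monooxygenase, carboxylesterase, glucuronosyltransferase, sulfotransferase, glutathione transferase and aldehyde dehydrogenase genes) 114 genes were tested, 86 had values below 0, 13 were called lower (11.4%, against 1.35% of all genes) and 2 higher (1.75%, against 1.55%). Their median was -0.22, against -0.0010 over all tested genes. Nr1i2, the nuclear receptor PXR that controls many of these enzymes, had 10.8, 22.7, 15.3 and 15.1 CPM in TTP-A 1 to 4 and 29.1, 40.8, 31.8 and 45.1 CPM in TTP-S 1 to 4. All 4 TTP-A libraries lay below TTP-S (-1.20 ± 0.20, adjusted p = 0.00604). Among the flavin monooxygenases 3 of 4 were called lower, Fmo1 (-0.98, adjusted p = 0.0136), Fmo2 (-1.38, adjusted p = 1.91e-04) and Fmo5 (-0.75, adjusted p = 0.0116). Ces2a, a carboxylesterase, had 1.54, 8.26, 2.45 and 2.31 CPM in TTP-A 1 to 4 and 12.3, 12.2, 11.1 and 13.9 CPM in TTP-S 1 to 4, with TTP-A 2 far above the other TTP-A libraries (-1.77 ± 0.36, adjusted p = 0.0206; -2.56 without TTP-A 2). Cyp2e1 (-1.73, adjusted p = 0.0136), Aadac, an esterase of the endoplasmic reticulum (-1.24, adjusted p = 0.0486), Ugt1a6a (-0.86, adjusted p = 0.0255) and Sult1a1 (-0.97, adjusted p = 0.0242) were called lower, and Cyp2d34 (2.48, adjusted p = 0.0206) was called higher. Ugt1a6a shares its annotated 3′ exons with other genes of its cluster and Sult1a1 overlaps Slx1b, so their counts are uncertain. Nr1i2, Fmo2 and Fmo5 passed in all 8 fits with 1 TTP library removed. Cyp2e1 did not pass without TTP-A 4 or TTP-S 2 or 4 (highest adjusted p = 0.0552). Fmo1 did not pass without TTP-A 1 or TTP-S 2 or 4 (highest adjusted p = 0.0623). Ces2a and Sult1a1 passed, of the fits with 1 TTP library removed, only in those without TTP-A 2 or TTP-S 1 or 3 (highest adjusted p = 0.0822 and 0.0886 in that order). Cyp2d34 passed, of the fits with 1 TTP library removed, only in those without TTP-A 2 or TTP-S 3 (highest adjusted p = 0.0826). Ugt1a6a passed, of the fits with 1 TTP library removed, only in those without TTP-A 2 or 3 (highest adjusted p = 0.0973). Aadac passed, of the fits with 1 TTP library removed, only in that without TTP-A 2 (highest adjusted p = 0.165).

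Beside Fut4 (-1.36) and B4galnt1 (-0.93), which were called lower, 3 other sugar transferases were picked out for their rises. A4gnt, which adds the terminal N-acetylglucosamine typical of gland mucin, had 319, 115, 195 and 238 CPM in TTP-A 1 to 4 and 82.2, 92.3, 101 and 87.3 CPM in TTP-S 1 to 4. TTP-A 1 was highest and TTP-A 2 lowest of TTP-A, the same order as for Muc6 at both ends (1.26 ± 0.31, adjusted p = 0.0400). Galnt6, which starts O-linked chains, had 166 to 341 CPM in TTP-A against 122 to 136 CPM in TTP-S (0.97 ± 0.22, adjusted p = 0.0297), and St3gal4, a sialyltransferase, 18.99 to 47.2 CPM in TTP-A against 6.16 to 8.70 CPM in TTP-S (2.14 ± 0.45, adjusted p = 0.0227). St3gal4 passed, of the fits with 1 TTP library removed, only in those without TTP-A 2 or 3 or TTP-S 3 (highest adjusted p = 0.0922). A4gnt and Galnt6 passed, of the fits with 1 TTP library removed, only in that without TTP-A 2 (highest adjusted p = 0.164 and 0.130 in that order).

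Ptprc (CD45), a surface protein of leukocytes, had 22.4, 12.03, 15.2 and 18.9 CPM in TTP-A 1 to 4 and 8.71, 10.6, 8.10 and 6.49 CPM in TTP-S 1 to 4, without overlap (1.01 ± 0.21, adjusted p = 0.0227). Coro1a (5.46 to 12.5 CPM in TTP-A against 2.51 to 5.23 CPM in TTP-S, log2 fold change 1.15, adjusted p = 0.0369) and Laptm5 (21.6 to 36.6 CPM in TTP-A against 13.1 to 19.5 CPM in TTP-S, log2 fold change 0.76, adjusted p = 0.0334) were called higher too. Ptprc passed, of the fits with 1 TTP library removed, only in those without TTP-A 2 or 3 or TTP-S 2 (highest adjusted p = 0.0950). Coro1a and Laptm5 passed, of the fits with 1 TTP library removed, only in that without TTP-A 2 (highest adjusted p = 0.144 and 0.142 in that order).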
